A study of Mus musculus with 6 samples.

Results

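The genes described here are Hmox1, which encodes the inducible heme oxygenase, and 9 genes of the pathway around it, 10 genes among 19938 that had a probe set naming a single gene. They were followed in oocytes of mice homozygous for a Brwd1 mutation and of wildtype mice, both on a B6/C3H background. The 10 genes are Hmox1, Hmox2, Blvra, Bach1, Nfe2l2, Keap1, Gclc, Gclm, Txnrd1 and Nqo1. Hmox1 was picked because it was higher in the mutant oocytes in this same comparison. The other 9 were picked for what they do, though with earlier results of these data known. For each gene the brightest of its probe sets over the 6 arrays was to be used, and each of the 10 had exactly 1. The question was whether the pathway followed Hmox1 in the mutant arrays.

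Each group had 3 samples, named by the replicate number in the labels, and each sample was a pool of 100 oocytes at the germinal vesicle stage, before the meiotic divisions resume. The females of both groups were 2 to 6 months old and had received 5 IU of equine chorionic gonadotropin, which stimulates follicle growth, 44 h earlier. RNA was amplified and read on 1-colour Affymetrix arrays, and levels are log2 values after RMA, the array normalization used by the submitters. The labels do not say whether the pools came from different animals or which part of Brwd1 is mutated, so the p-values speak for the spread among these 6 pools, some or all of which may be technical. A level belongs to its own probe set, so levels are compared between samples and not between genes.

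Heme oxygenases open the heme ring and release iron, carbon monoxide and biliverdin, which biliverdin reductase turns into the antioxidant bilirubin. Transcription of Hmox1 is held down by the repressor Bach1, which heme releases from DNA, and is driven by the factor Nrf2, the product of Nfe2l2. In unstressed cells Keap1 hands Nrf2 to a ubiquitin ligase for destruction. Oxidants and electrophiles disable Keap1, and Nrf2 then switches on genes of glutathione synthesis, thioredoxin reduction and quinone detoxification, among them Gclc, Gclm, Txnrd1 and Nqo1. In oocytes glutathione is a main store of reducing power and is drawn on after fertilisation, when the sperm nucleus is opened up.

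Brwd1 itself was at 4.41, 4.56 and 4.50 in mutant 1, 2 and 3, against 8.91, 9.08 and 8.98 in wildtype 1, 2 and 3. The 10 oocyte markers examined, among them the zona pellucida genes Zp1, Zp2 and Zp3, lay between 7.80 and 12.24 on all 6 arrays. As a guide to background, the 95th percentile of 1212 probe sets of olfactory and vomeronasal receptors was 4.48, and the mean levels of all 10 genes of the pathway were above it. On the second principal component, with 19.0% of the variance, wildtype 3 lay far from the other 5 arrays, while the first, with 37.8%, separated the genotypes. Over all 23410 probe sets tested, 32 (0.137%) passed a Benjamini-Hochberg adjusted p of 0.05 in limma, 9 (0.0384%) higher and 23 (0.0982%) lower in the mutant, against 6 of 36 higher after median centring.

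Hmox1 was higher in all 3 mutant samples than in any wildtype sample. Its level was 6.50, 6.44 and 6.67 in mutant 1, 2 and 3, against 5.47, 5.66 and 5.45 in wildtype 1, 2 and 3. The groups lay far apart, with wildtype 2 and mutant 2 the nearest samples. The log2 difference was 1.01 (SE 0.0889, 95% interval 0.80 to 1.22, n = 3 per group), or 2.01-fold. Since this difference chose the gene, it is given as a description with no test. It was 0.97 without wildtype 3, and between 0.94 and 1.08 with any single array left out.

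None of the other 9 genes passed the threshold in limma over all probe sets, in either direction. At an unadjusted p under 0.05, limma gave 1 of the 9, Keap1, which was higher, against 14.9% of all genes, 7.53% higher and 7.33% lower. Of the 9 log2 differences, 4 were above 0 and 5 below, and they ran from -0.27 to 0.23. Their median was -0.027, against 0.013 over all 19938 genes, and their median absolute difference was 0.090, against 0.090 over all genes. The groups did not overlap in 1 of the 9, against 19.8% of all genes. The mean level of the 9 genes was 6.90, 6.84 and 6.85 in mutant 1, 2 and 3, against 6.93, 6.86 and 6.87 in wildtype 1, 2 and 3.

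**Figure D1:**
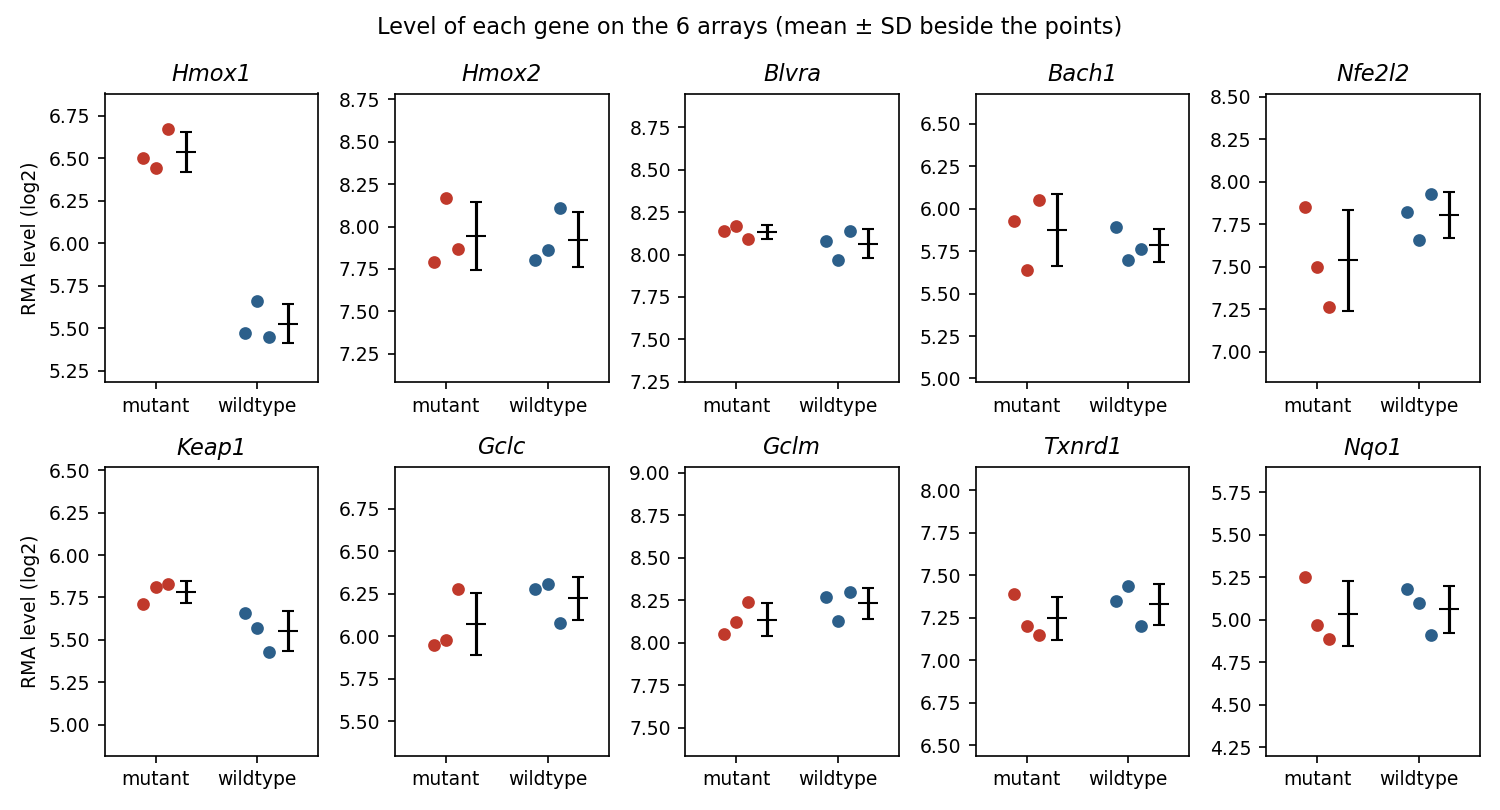
RMA level (log2) of the 10 genes in the 3 mutant samples (red, left) and the 3 wildtype samples (blue, right), with the mean and SD of each group beside the points; each panel has its own axis, all spanning the same range. The groups are far apart for Hmox1, do not overlap for Keap1 and overlap for the other 8 genes.

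Neither of the enzymes that share the work of Hmox1 passed the test. Hmox2, the constitutive heme oxygenase, was at 7.79, 8.17 and 7.87 in mutant 1, 2 and 3, against 7.80, 7.86 and 8.11 in wildtype 1, 2 and 3. The groups overlapped almost fully, with 1 high sample in each, mutant 2 and wildtype 3. The log2 difference of Hmox2 was 0.020 (95% interval -0.28 to 0.32; limma, adjusted p = 0.953), and its sign turned after median centring and under 3 of the 6 omissions of an array. Blvra, biliverdin reductase A, which carries out the next step, was at 8.14, 8.17 and 8.09 in mutant 1, 2 and 3, against 8.08, 7.97 and 8.14 in wildtype 1, 2 and 3. Wildtype 3 lay within the mutant range, and the difference was 0.070 (95% interval -0.085 to 0.23; limma, adjusted p = 0.657).

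The transcript of the repressor of Hmox1 did not pass either. Bach1, which blocks the Nrf2 binding sites of Hmox1 until heme binds to it, was at 5.93, 5.64 and 6.05 in mutant 1, 2 and 3, against 5.89, 5.70 and 5.76 in wildtype 1, 2 and 3. Mutant samples gave both the highest and the lowest level, and the log2 difference was 0.090 (95% interval -0.18 to 0.36; limma, adjusted p = 0.750). Bach1 and Hmox2 are on chromosome 16, as is Brwd1, and Bach1 lies within 20 Mb of Brwd1 in the RefSeq table of GRCm38.p6. The difference of Bach1 was within the spread between samples. Of the genes named below, Gsk3b, Abcc1, Cpox and Bmerb1 are on chromosome 16 too. Strain DNA carried along with the mutation was not examined for any gene.

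Nfe2l2, which encodes Nrf2, did not pass. It was at 7.85, 7.50 and 7.26 in mutant 1, 2 and 3, against 7.82, 7.66 and 7.93 in wildtype 1, 2 and 3. Mutant 1 lay among the wildtype samples, mutant 3 was the lowest of the 6, and the mutant samples had the wider spread, 7.54 ± 0.30 against 7.80 ± 0.14 in the wildtype (SD, n = 3 per group). The log2 difference was -0.27 (SE 0.152, 95% interval -0.63 to 0.095; limma, adjusted p = 0.464), the lowest value among the 10 genes. It was -0.13 without mutant 3 and -0.42 without mutant 1.

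Keap1, the inhibitor of Nrf2, came nearest to the threshold among the 9. Its level was 5.71, 5.81 and 5.83 in mutant 1, 2 and 3, against 5.66, 5.57 and 5.43 in wildtype 1, 2 and 3. The groups did not overlap, though mutant 1 and wildtype 1 were close. The log2 difference was 0.23 (SE 0.0770, 95% interval 0.047 to 0.41), 1.17-fold, and it did not pass (limma, unadjusted p = 0.0208, adjusted p = 0.260). Under the 17 alternative settings it ran from 0.17 to 0.28, with limma adjusted p-values from 0.203 to 0.476.

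None of the 4 classical Nrf2 target genes among the members passed, and their log2 differences ran from -0.15 to -0.027. Gclc, the catalytic subunit of glutamate-cysteine ligase, the rate-limiting enzyme of glutathione synthesis, was at 5.95, 5.98 and 6.28 in mutant 1, 2 and 3, against 6.28, 6.31 and 6.08 in wildtype 1, 2 and 3. Each group had 1 sample that lay with the other group, mutant 3 and wildtype 3, and the log2 difference was -0.15 (95% interval -0.41 to 0.11; limma, adjusted p = 0.559). Gclm, the regulatory subunit of the same enzyme, was at 8.05, 8.12 and 8.24 in mutant 1, 2 and 3, against 8.27, 8.13 and 8.30 in wildtype 1, 2 and 3. Its groups overlapped, and the difference was -0.097 (95% interval -0.28 to 0.086; limma, adjusted p = 0.601).

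Txnrd1, the cytosolic thioredoxin reductase, a selenoprotein, was at 7.39, 7.20 and 7.15 in mutant 1, 2 and 3, against 7.35, 7.44 and 7.20 in wildtype 1, 2 and 3. Mutant 1 was the second highest of the 6, and the log2 difference was -0.083 (95% interval -0.30 to 0.14; limma, adjusted p = 0.713). Nqo1, the quinone reductase often read as a reporter of Nrf2 activity, was at 5.25, 4.97 and 4.89 in mutant 1, 2 and 3, against 5.18, 5.10 and 4.91 in wildtype 1, 2 and 3. The highest and the lowest level both came from mutant samples. The difference was -0.027 (95% interval -0.30 to 0.25; limma, adjusted p = 0.931), and its sign turned under 3 of the 6 omissions of an array.

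The 95% intervals of the 9 genes ended at 0.41 or below, and that of Hmox1 began at 0.80. They are given side by side as a description, with no test, because Hmox1 was chosen for its size.

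**Figure D2:**
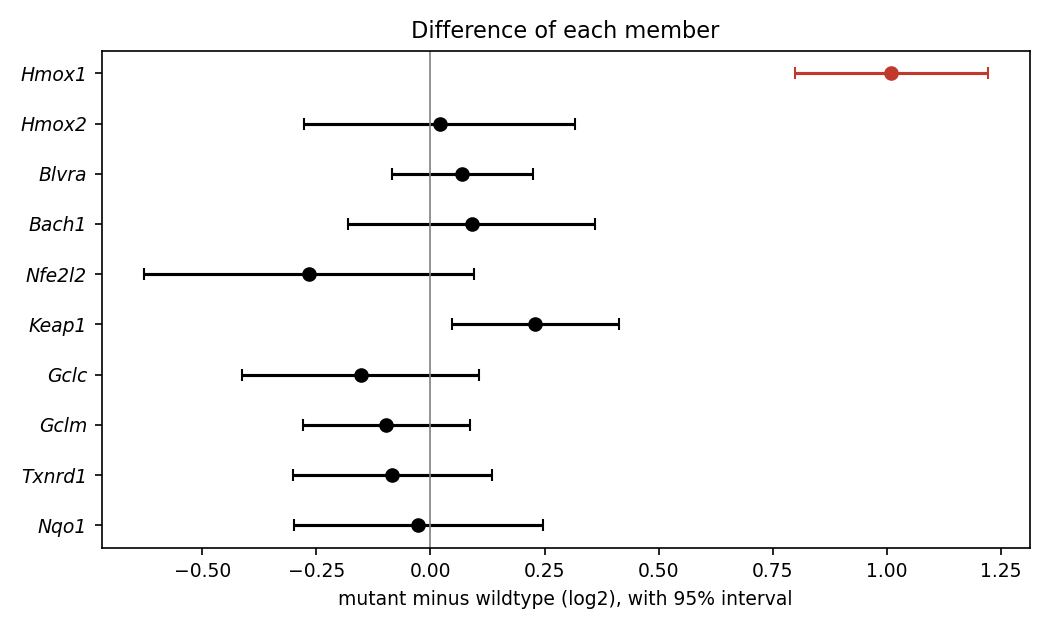
Mutant minus wildtype difference (log2) of each of the 10 genes, with the 95% interval of the limma fit as bars. The interval of Hmox1 runs from 0.80 to 1.22, that of Keap1 from 0.047 to 0.41, and those of the other 8 genes include 0.

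Nrf2 binds the antioxidant response element, whose core reads TGACNNNGC, and the start regions of the members were searched for it because several of these genes are known targets of the factor. RefSeq windows of 300 bases, 250 before and 50 after each start site in GRCm38.p6, were searched on both strands, with no other motif. Windows were found for 8 of the 10 genes, 12 windows in all, and for neither Hmox1 nor Gclc. The core was in 4 of the 12 windows, in those of Nfe2l2, Gclm, Txnrd1 and Blvra, and in 12.4% of all 32851 windows. Each match is shown on the strand of its gene with up to 16 flanking bases, in capitals. For Gclm, Txnrd1 and Blvra the core lies on the opposite strand, so the capitals read as its reverse complement.
Nfe2l2, chr2:75704879-75704913, minus strand: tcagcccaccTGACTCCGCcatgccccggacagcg
Gclm, chr3:122245407-122245447, plus strand: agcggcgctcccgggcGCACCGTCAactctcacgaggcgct
Txnrd1, chr10:82859098-82859138, plus strand: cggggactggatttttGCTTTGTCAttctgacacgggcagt
Blvra, chr2:127070592-127070632, plus strand: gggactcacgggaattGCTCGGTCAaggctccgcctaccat
The matches begin 240, 134, 92 and 49 bases before the start site of Nfe2l2, Gclm, Txnrd1 and Blvra in that order. The log2 differences of these 4 genes were -0.27, -0.097, -0.083 and 0.070, and none passed. A match of these letters is a description and not a site shown to bind.

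Other genes of the pathway were taken as lists, written down with earlier results of these data known. Among 11 partners and regulators of Nrf2, 0 passed in limma over all probe sets, and at an unadjusted p under 0.05 limma gave 1 higher and 1 lower, 2 of 11, against 14.9% of all genes. The list median was -0.040, against 0.013 over all genes, and the groups did not overlap in 4 of 11, against 19.8% of all genes. Gsk3b, a kinase that marks Nrf2 for degradation, was at 7.11, 7.19 and 7.37 in mutant 1, 2 and 3, against 7.40, 7.44 and 7.70 in wildtype 1, 2 and 3, a log2 difference of -0.29 (limma, adjusted p = 0.284). Its groups did not overlap, with mutant 3 just under wildtype 1. The small Maf proteins pair with Nrf2 and with Bach1 on DNA, and Mafk was at 0.27, Mafg at 0.13 and Maff at -0.097 as log2 differences. Cul3 and Rbx1, the ubiquitin ligase that Keap1 serves, were at 0.047 and -0.040. Sqstm1, which encodes p62, a protein that draws Keap1 away from Nrf2 and is itself an Nrf2 target, was at 0.34, with mutant 3 at 7.62 above the other 5 arrays, which ran from 6.70 to 7.09. Of the relatives of Nrf2, Nfe2l1 was at -0.14 and Nfe2l3 at 0.037.

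Among 25 further textbook targets of Nrf2, 0 passed in limma, and at an unadjusted p under 0.05 limma gave 3 higher and 2 lower, 5 of 25, against 14.9% of all genes. The median was -0.030, with 11 above 0 and 14 below, and the groups did not overlap in 5 of 25, against 19.8% of all genes. Pgd, an enzyme of the pentose phosphate pathway that makes NADPH, was at 8.24, 8.43 and 8.22 in mutant 1, 2 and 3, against 7.65, 7.90 and 7.96 in wildtype 1, 2 and 3. All mutant samples were above all wildtype samples, and the log2 difference of 0.46 had an adjusted p of 0.155 (limma). Osgin1, an oxidative stress-induced growth inhibitor, was at -0.29, the exporter Abcc1 at -0.21 and the glutathione transferase Gstp1 at 0.18, with limma adjusted p-values from 0.224 to 0.260. Their directions were mixed. The mean level of the 25 targets was 6.99, 6.96 and 6.97 in mutant 1, 2 and 3, against 6.95, 7.01 and 6.97 in wildtype 1, 2 and 3.

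Genes that make, move or break down heme, the substrate of Hmox1, did not pass as single genes. Of 13 measured, 0 passed in limma, and at an unadjusted p under 0.05 limma gave 3 higher and 2 lower, 5 of 13, against 14.9% of all genes. The groups did not overlap in 4 of 13, against 19.8% of all genes. Urod, which makes coproporphyrinogen, was at 7.66, 7.47 and 7.52 in mutant 1, 2 and 3, against 7.98, 7.79 and 7.81 in wildtype 1, 2 and 3, a log2 difference of -0.31 (limma, adjusted p = 0.193). Cpox, the enzyme of the next step, was at 8.36, 8.55 and 8.15 in mutant 1, 2 and 3, against 8.03, 7.93 and 8.04 in wildtype 1, 2 and 3, a difference of 0.35 (limma, adjusted p = 0.223). The values of these neighbouring steps pointed opposite ways, each without overlap of the groups. Flvcr2 was at 0.17, with all 6 levels under the background guide, and the heme transporter Slc48a1 was at -0.25.

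Iron handling, which takes up the iron that heme oxygenase sets free, had a narrow range of differences in a short list. Of 7 genes 0 passed in limma, 0 had an unadjusted p under 0.05, and the log2 differences ran from -0.067 to 0.13. The groups did not overlap in 1 of 7, against 19.8% of all genes. The iron importer Slc11a2 was at 0.13, Ncoa4, which carries ferritin to lysosomes, at -0.067, the iron sensor Ireb2 at 0.050 and the exporter Slc40a1 at -0.050. The ferritin chains Ftl1 and Fth1, counted with the Nrf2 targets and named here for their role beside Hmox1, were at 0.10 and 0.063.

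Of 18 antioxidant enzymes outside the lists above, 0 passed in limma, and at an unadjusted p under 0.05 limma gave 1 higher and 2 lower, 3 of 18, against 14.9% of all genes. The groups did not overlap in 5 of 18, against 19.8% of all genes. Txnrd3, a thioredoxin reductase best known from testis, was at 7.09, 7.06 and 7.11 in mutant 1, 2 and 3, against 7.41, 7.37 and 7.43 in wildtype 1, 2 and 3. Both groups were tight and lay apart, and the log2 difference of -0.32 (SE 0.053) had an adjusted p of 0.122 (limma). Gpx3, a secreted glutathione peroxidase, was at 0.43, and Sod2, the mitochondrial superoxide dismutase, at -0.27. Prdx4, the peroxiredoxin of the endoplasmic reticulum, was at -0.73, with all 3 mutant levels under the background guide, so the size of its difference is uncertain.

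Heat shock, hypoxia and the integrated stress response can also act on Hmox1. Of 13 such genes measured, 0 passed in limma, and at an unadjusted p under 0.05 limma gave 1 higher and 1 lower, 2 of 13, against 14.9% of all genes. The groups did not overlap in 1 of 13, against 19.8% of all genes. The heat shock factor gene Hsf2 was at 6.71, 6.22 and 6.67 in mutant 1, 2 and 3, against 5.83, 5.25 and 5.26 in wildtype 1, 2 and 3. Its log2 difference of 1.09 (SE 0.196; limma, adjusted p = 0.122) was as large as that of Hmox1 but came with more spread between samples. Dnajb1 and Hspa1a, heat shock genes outside the naming rule and given for comparison after their values were seen, were at 0.010 and -0.093. Asns was at -0.31, Sesn2 at -0.13 and Atf4, the factor that drives both, at 0.11.

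**Figure D3:**
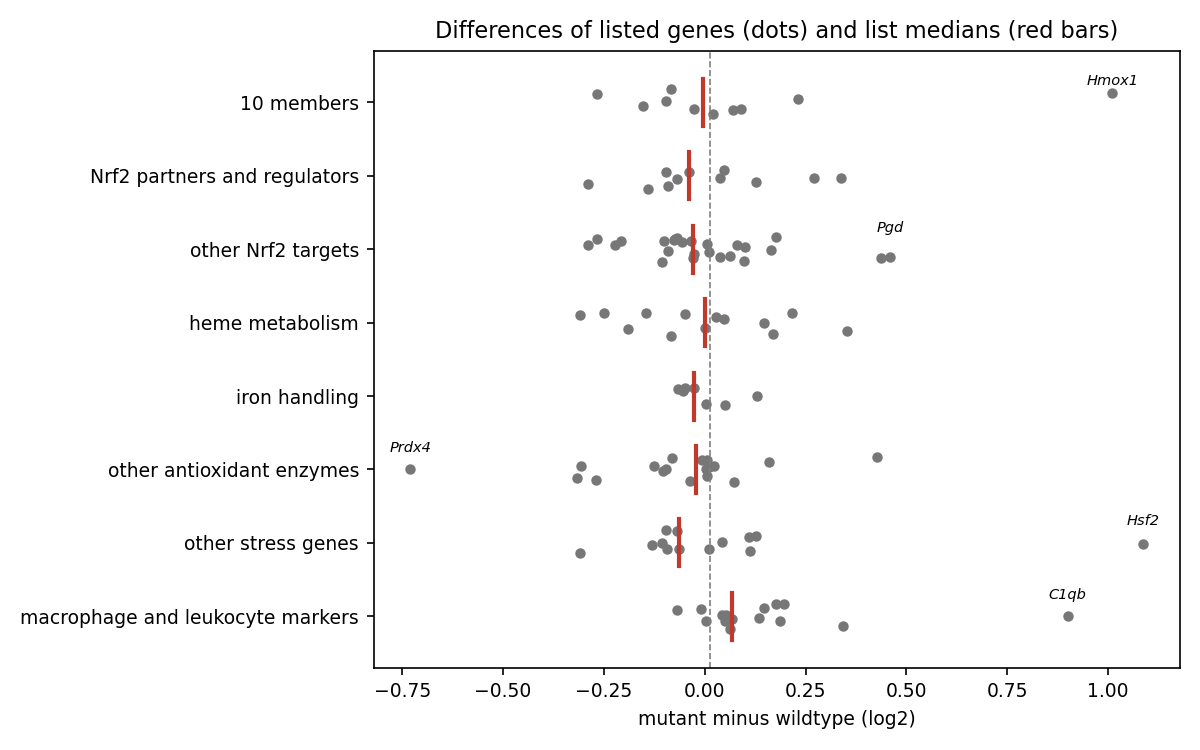
Mutant minus wildtype differences (log2) of the genes in each list (grey dots), with the list median as a red bar and the median of all genes as a dashed line; genes beyond 0.45 are named. List medians lie between -0.063 and 0.067 in the 8 lists drawn, and Hmox1, Hsf2 and C1qb are far to the right of the other genes in their lists.

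Macrophages are rich in heme oxygenase 1, so markers of other cells that a pool could hold are given beside Hmox1. Of 15 macrophage and leukocyte markers, 13 were above 0 and 2 below, and 0 passed in limma, with 4 higher and 0 lower at an unadjusted p under 0.05, against 7.53% higher and 7.33% lower over all genes. Over all 19938 genes, 10665 were above 0. The sum of their 15 log2 levels was 68.35 to 68.97 in the mutant samples, against 65.65 to 67.16 in the wildtype samples, and 61.64 to 61.91 against 59.89 to 60.73 without C1qb. C1qb, which macrophages make as a chain of complement C1q, was at 6.71, 6.92 and 7.06 in mutant 1, 2 and 3, against 5.74, 5.76 and 6.49 in wildtype 1, 2 and 3, a difference of 0.90 (limma, adjusted p = 0.162). Laptm5 was at 0.34, C1qa at 0.18 and Cd14 at 0.20, with all 6 levels of Cd14 under the background guide. The remaining markers with mean levels above the guide, Cd68 and Mrc1, were at -0.07 and 0.15. The mean levels of 10 of the 15 markers were at or under the background guide, among them Csf1r, Adgre1, Ptprc, Cd163 and Lyz2, which are named for defining the cell type and lay between 3.23 and 4.04 on the 6 arrays.

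Summed log2 levels were also higher in the mutant for the 14 granulosa and cumulus markers, 70.85 to 71.66 against 70.28 to 70.83 in the wildtype. The same held for the 8 theca and stroma markers, 35.17 to 35.68 against 34.75 to 34.89, and for the 10 oocyte markers, 112.94 to 113.18 against 112.48 to 112.75. Of the 14 granulosa and cumulus markers, 10 were above 0 and 4 below, against 10665 of all 19938 genes above 0. Of the 8 theca and stroma markers, 6 were above 0 and 2 below. Mean levels of 6 of the 14 and 5 of the 8 were at or under the background guide. The 6 endothelial markers, at 31.79 to 32.97 in the mutant and 31.45 to 31.82 in the wildtype, and the 3 erythroid markers measured, at 14.72 to 14.89 and 14.29 to 15.06, overlapped between the groups. The overlap of the endothelial sums was slight, and all 6 endothelial markers were above 0. Over all genes the median difference was 0.027 for those at or under the background guide and -0.0033 for those above it. The array medians over all probe sets tested were 5.29, 5.31 and 5.29 in mutant 1, 2 and 3. They were 5.255, 5.24 and 5.24 in wildtype 1, 2 and 3, and no marker sum was adjusted for this. The part of other cells in the level of Hmox1 was not tested, and in pooled samples more cells of a type and more RNA per cell cannot be told apart.

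The genes whose pattern over the 6 arrays was most like that of Hmox1 were not members of its pathway. Likeness was measured as the root mean square difference of log2 levels after subtracting each gene's own mean, over 12059 named genes above the background guide. The smallest values were 0.145 for Bmerb1, 0.154 for the epithelial keratin gene Krt8, 0.156 for the secreted protease gene Klk14, 0.158 for Dapl1 and 0.168 for Fam186a. Their mutant minus wildtype differences were 0.79, 0.77, 0.87, 1.08 and 0.69 in that order, and the wildtype mean of Dapl1, 4.02, lay under the background guide. These genes were selected by their values, so no test was made. Of the 9 other members Keap1 was the most like Hmox1, at 0.404 and rank 720, and the other 8 had ranks from 3167 for Bach1 to 11341 for Nfe2l2.

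**Figure D4:**
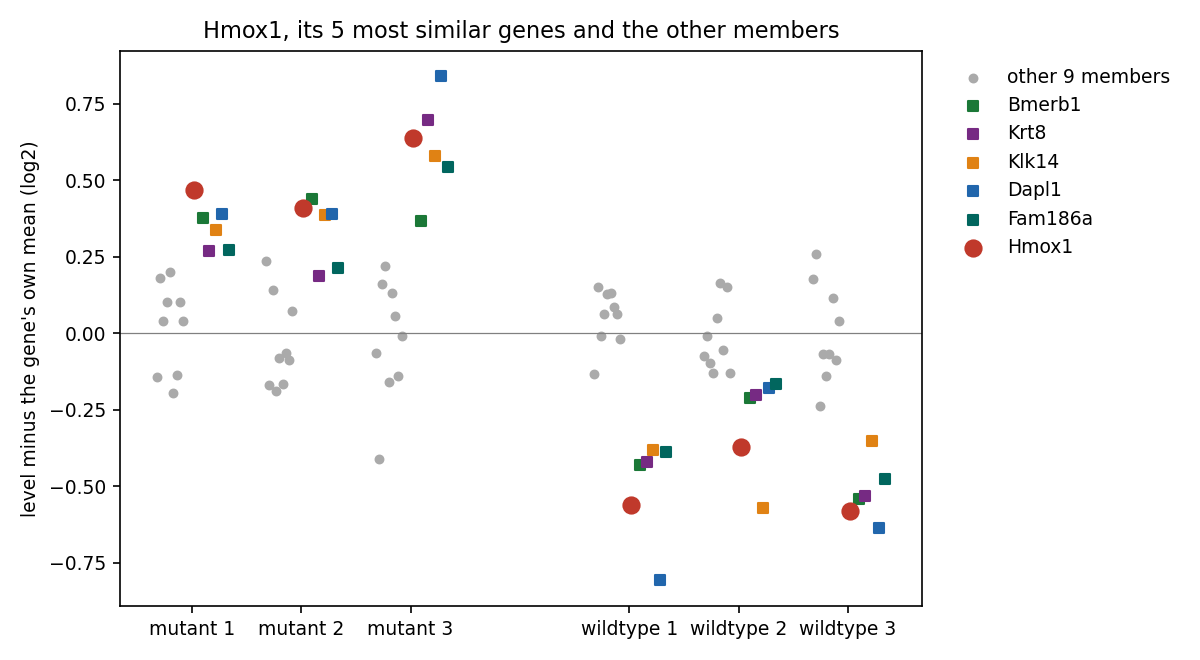
Level minus the gene's own mean over the 6 arrays (log2) for Hmox1 (large red points), the 5 most similar genes (coloured squares) and the other 9 members (grey points), mutant samples on the left. Hmox1 and the 5 genes, chosen for this likeness, lie above 0 in every mutant sample and below 0 in every wildtype sample. The grey points of Keap1 do so too, by less, with wildtype 1 just under 0. Those of the remaining members spread around 0 in both groups.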

How the data were processed

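The authors' deposited log2 values came from Affymetrix Expression Console 1.1 with RMA, per the submitters' processing notes. RMA brings the arrays to a like distribution, so a change in total RNA per oocyte cannot be seen, and it compresses differences near background. The array medians over all 35556 probe sets still ran from 4.71 to 4.79 in the mutant and from 4.69 to 4.71 in the wildtype. Per the labels' protocols, 1 ng of RNA per sample was amplified. The number of arrays limits the precision. The table held 35556 probe sets, of which 21789 had 1 gene symbol, 1621 several and 12146 none in the array annotation. Mutant minus wildtype was fitted with limma 3.58.1 in R 4.3.3 over all 6 arrays, two-sided, on the 23410 probe sets with a symbol, with Benjamini-Hochberg adjustment and a threshold of 0.05. The procedure was tested on simulated data with planted differences about as large as that of Hmox1 or larger. Recovery was required only of the larger ones, so the simulation does not speak for differences of the size of Hmox1 or smaller. Genes are represented by their brightest single-symbol probe set.

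The members and lists were chosen with earlier results of these data known. Named are the members, up to 4 genes per list with the smallest p-values, any regulator of Nrf2, and the 5 genes most like Hmox1. Listed genes without a single-symbol probe set were not analysed here. Alternatives covered the replicate block, filters, normalization, variance model, array weights, probe sets and omission of each array. The sources used here give no genome build for the array.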

Additional observations from a re-analysis of the deposited data

How the results depend on the processing

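Among the 17 alternatives, 0 of the other 9 members passed in the 16 that held all 9, and 0 of 8 among probe sets above the median level, where Nqo1 was not tested (limma, smallest adjusted p over all of them 0.203). The medians of the 6 pathway lists and of the 9 members moved by at most 0.083. The difference of Hmox1, a description, stayed above 0, and was 0.95 after median centring. It was 1.01 with the replicate number as a block, with all probe sets of the table and with repeated probe sets counted once. Those settings cannot change the difference itself, so its staying the same there is no support. The difference was 0.94 to 1.08 without any 1 array. The 32 calls over all probe sets became 1 with the replicate block, with all probe sets of the table and with repeats counted once, 15 with the probe sets of each gene averaged, 76 with trend and robust settings, and 1 to 18 without 1 array: 1 without mutant 1, wildtype 1 or wildtype 2, 3 without mutant 2, 10 without mutant 3 and 18 without wildtype 3. Of these calls 9 of 32 were higher as reported and 6 of 36 after median centring. Same-numbered samples did not deviate together, with correlations of -0.00146, -0.0314 and 0.0365 between their deviations from the group means. With 3 samples per group this cannot settle whether the numbers pair the samples. The sign turned for Hmox2 after median centring, at -0.037, and without mutant 2, wildtype 1 or wildtype 2, with values from -0.093 to 0.11 over the 6 omissions. It turned for Nqo1 without mutant 2, mutant 3 or wildtype 1, with values from -0.13 to 0.047 over the 6 omissions. The cause of these changes was not tested. Levels near the background guide have uncertain differences.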
